A study of Homo sapiens with 9 samples.

Results

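The 60 genes described here encode the machinery of mitosis: its cyclins and kinases, the spindle checkpoint, kinetochore proteins, kinesin motors, spindle proteins and the proteins that part the daughter cells. They were chosen by symbol from a list of mitosis genes that includes PLK1, the kinase that phosphorylates PDCD4. All 60 were among the 60623 genes of the deposited tables, and all 60 were among the 16213 genes with enough reads to be tested. RNA was sequenced from 22Rv1, a human prostate carcinoma cell line, with PDCD4 knocked down by a short hairpin RNA in all groups and 1 of 3 forms of the protein returned. S239D carries aspartate, a stand-in for a phosphate, in place of the serine that PLK1 phosphorylates, S239A carries alanine, which cannot be phosphorylated, and WT carries the serine. Each group had 3 libraries, and the labels name no separate cultures or clones, so the p-values below reflect library-to-library spread, which may be technical. The study asked how this phosphorylation bears on resistance to enzalutamide, an androgen receptor blocker; cells with PDCD4 depleted and nothing returned, and drug-treated cells, were not analysed here. What drives the returned copies is not stated in the labels.

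Mitosis divides a replicated genome between daughter cells. CDK1, bound to cyclin B, starts it. PLK1 and the Aurora kinases build the spindle, and the checkpoint holds anaphase until every kinetochore has captured microtubules. The anaphase-promoting complex, an E3 ubiquitin ligase, then destroys securin and cyclin B. Most of these genes are transcribed in G2 and M phase, when MYBL2 and FOXM1 work with the MuvB complex at promoters carrying a cell cycle genes homology region, often with CCAAT boxes bound by NF-Y. In bulk RNA, fewer cells in G2 and M phase cannot be told apart from less of these transcripts per cell.

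Total counts per library were 5696841 to 9688554, and a floor of 3 counts corresponded to 0.310 to 0.527 CPM (counts scaled to a common library total), covering counting error only. The lowest count of any of the 60 genes in any library was 24. The line's prostate luminal markers were present: all 10 reached 1 TPM (transcript abundance scaled by gene length and library total), and their summed level was 2808 to 2902 TPM in S239D, 3855 to 4330 TPM in S239A and 3780 to 3885 TPM in WT. None of 4 endothelial markers reached 1 TPM. Summed basal markers were 4.88 to 8.96 TPM in S239D, 3.25 to 5.01 TPM in S239A and 3.17 to 4.61 TPM in WT. Of 6 fibroblast markers 5 reached 1 TPM in some library, with sums of 26.9 to 37.0 TPM in S239D, 47.0 to 61.1 TPM in S239A and 46.5 to 59.0 TPM in WT, and 2 of 5 leukocyte markers did, with sums of 1.60 to 2.81 TPM, 2.51 to 7.51 TPM and 3.12 to 4.40 TPM in the same order of groups. The luminal and fibroblast sums were thus lower in every S239D library than in any other, and their part in the results on mitotic genes was not tested. PDCD4 itself had 16.8, 17.1 and 17.0 CPM in S239D, 19.0, 23.1 and 25 CPM in S239A and 24.1, 24.9 and 20.4 CPM in WT. Against WT, S239D had a PDCD4 log2 fold change of -0.44 (adjusted p = 0.0164, edgeR), a call lost without WT replicate 1 (adjusted p = 0.0657) or WT replicate 2 (adjusted p = 0.0627), and against S239A of -0.40 (adjusted p = 0.0245), lost without S239A replicate 3 (adjusted p = 0.110), S239D replicate 1 (adjusted p = 0.0568) or S239D replicate 3 (adjusted p = 0.0651). With limma on log2(TPM + 1) PDCD4 was called in neither, at -0.29 (adjusted p = 0.410) against WT and -0.20 (adjusted p = 0.585) against S239A. PDCD4 reads from the returned and the endogenous copy were not separated.

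The promoters of these genes share sequence that the choice of members did not use. RefSeq promoter sequences (GRCh38.p14, 250 bases before to 50 after the annotated start) were given for 52 of the 60 genes, in 64 promoters; FOXM1, RACGAP1, AURKA, TPX2, TTK, TROAP, PBK and UBE2C were not matched. TTTGAA, the core of the cell cycle genes homology region, was searched on both strands, and so was CCAAT. The first was found in 40 of the 64 promoters (62.5%), against 15.2% of all 35116 promoters of the same length, and the second in 44 (68.8%), against 34.6%. Both stood in 31 of the 64 (48.4%), against 5.9% of all promoters. The variant TTCGAA was in 3 (4.7%), against 1.4%. Of the 54 TTTGAA matches, counted separately in each promoter, 2 shared a base with a CCAAT match. The windows of 6 genes are printed because they set genes called between groups beside genes not called. PLK1 and ESPL1, which encodes separase, did not pass the test between S239D and WT, whereas CCNB2, PRC1, CDC20 and CCNB1 did. Each runs from 130 bases before the annotated start through the first 20 transcribed bases, 5′ to 3′ on the gene's strand, with TTTGAA and CCAAT matches (ATTGG where CCAAT lies on the other strand) in capitals.
PLK1 (chr16:23678759-23678908, plus strand): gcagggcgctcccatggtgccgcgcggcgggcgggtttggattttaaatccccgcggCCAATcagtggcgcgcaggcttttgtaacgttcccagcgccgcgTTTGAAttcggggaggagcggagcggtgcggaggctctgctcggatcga
ESPL1 (chr12:53268169-53268318, plus strand): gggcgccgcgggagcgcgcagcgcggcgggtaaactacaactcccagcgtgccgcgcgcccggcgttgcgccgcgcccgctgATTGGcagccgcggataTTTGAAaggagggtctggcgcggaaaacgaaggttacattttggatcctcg
CCNB2 (chr15:59105016-59105165, plus strand): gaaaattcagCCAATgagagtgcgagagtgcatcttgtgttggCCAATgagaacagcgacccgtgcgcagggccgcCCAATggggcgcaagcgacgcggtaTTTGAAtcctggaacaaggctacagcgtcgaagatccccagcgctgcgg
PRC1 (chr15:90994516-90994665, minus strand): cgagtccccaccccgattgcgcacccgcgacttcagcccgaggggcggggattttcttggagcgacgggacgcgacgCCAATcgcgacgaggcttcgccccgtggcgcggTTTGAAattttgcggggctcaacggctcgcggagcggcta
CDC20 (chr1:43358851-43359000, plus strand): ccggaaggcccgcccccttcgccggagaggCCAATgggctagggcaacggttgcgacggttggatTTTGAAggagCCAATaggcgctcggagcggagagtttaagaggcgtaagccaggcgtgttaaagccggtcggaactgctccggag
CCNB1 (chr5:69167020-69167169, plus strand): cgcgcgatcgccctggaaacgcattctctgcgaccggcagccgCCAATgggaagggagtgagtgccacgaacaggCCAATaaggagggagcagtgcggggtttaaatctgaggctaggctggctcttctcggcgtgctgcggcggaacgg

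PLK1 and CCNB2 both hold TTTGAA beginning 29 bases before the start, and ESPL1 holds it at 31 bases, and of these 3 genes CCNB2 was called between S239D and WT and the other two were not. CCNB2 has 3 CCAAT boxes, beginning 120, 87 and 54 bases before the start and 33 bases apart, and PLK1 has 1, at 73 bases. The CCNB1 window has CCAAT at 87 and 55 bases, 32 bases apart, and no TTTGAA in these letters. In S239D against WT 21.7% of all genes tested were called lower. Of the 37 matched genes with TTTGAA in any promoter, 23 were called lower in that comparison (median log2 fold change -0.45). Of the 15 without it 13 were (median -0.70). Among the 39 genes with CCAAT 27 were called lower (median -0.61), and among the 13 without it 9 were (median -0.45). These are counts of letters and name no bound factor.

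**Figure D1:**
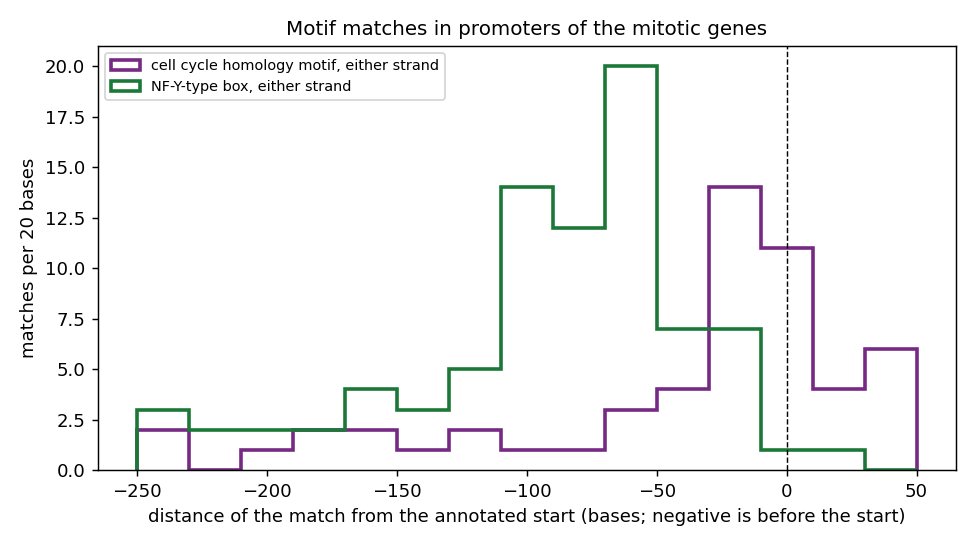
Number of motif matches per 20 bases (y axis) by distance from the annotated transcription start in bases (x axis), over the 64 matched promoters of the mitotic genes, for the cell cycle homology motif and the NF-Y-type box on either strand. The 54 homology motif matches have a median position of -23 bases and the 83 NF-Y-type matches of -79 bases. Matches were counted per promoter and per strand, so some sites in overlapping promoters of the same gene were counted more than once.

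Mitotic genes were mostly lower in S239D. Of the 60, 40 were called lower in S239D than in WT, 20 were not called and 0 were called higher, at an adjusted p under 0.05 in edgeR's quasi-likelihood test. At that threshold 21.7% of all 16213 genes were called lower, 19.7% higher and 41.4% in either direction, so the variant came with a wide change of expression and the mitotic genes lay on one side of it. With 0 called higher, 0 were also higher at an unadjusted p under 0.05, and DESeq2 and limma called 0 higher. The median log2 fold change was -0.47 over the 60 genes and 0.00075 over all genes tested. The log2 fold change was negative in 56 of the 60, as in 49.9% of all genes. In 49 of the 60, every S239D library lay below every WT library, which held for 27.4% of all genes; CDC25B lay above in every S239D library, as did 26.5% of all genes, and 10 genes overlapped. The 40 calls ran from -0.32 (BUB1B) to -1.27 (CENPE). The summed level of the 60 was 2457, 2728 and 2441 TPM in S239D, 3210, 3159 and 3074 TPM in S239A, and 3523, 3442 and 3424 TPM in WT. The group means of 2542 ± 161, 3148 ± 68.7 and 3463 ± 52.8 TPM (SD, n = 3 each) put S239D 26.6% and S239A 9.108% below WT, and on this scale the libraries of the 3 groups did not overlap. In normalised CPM, where long genes weigh more, the sums averaged 3958 ± 204 in S239D, 5254 ± 381 in S239A and 5483 ± 72.8 in WT, and S239A replicate 2, at 5688, was above every WT library (5435 to 5567), so that only S239D stood apart on both scales. With limma on log2(TPM + 1) in place of edgeR, 27 of the 60 were called lower than in WT, as were 10.5% of all genes in that fit. The 13 calls lost, at adjusted p of 0.0528 to 0.633, were those of BUB1B, MYBL2, CENPI, SPC25, INCENP, KIF18A, KIF23, TPX2, PRC1, TACC3, CKAP2L, NCAPG and NCAPH. Of these, PRC1 (-0.41), TACC3 (-0.24) and CKAP2L (-0.19) had log2 fold changes smaller by over 1.5 times, as had BUB1B (-0.089) and NCAPH (-0.15).

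**Figure D2:**
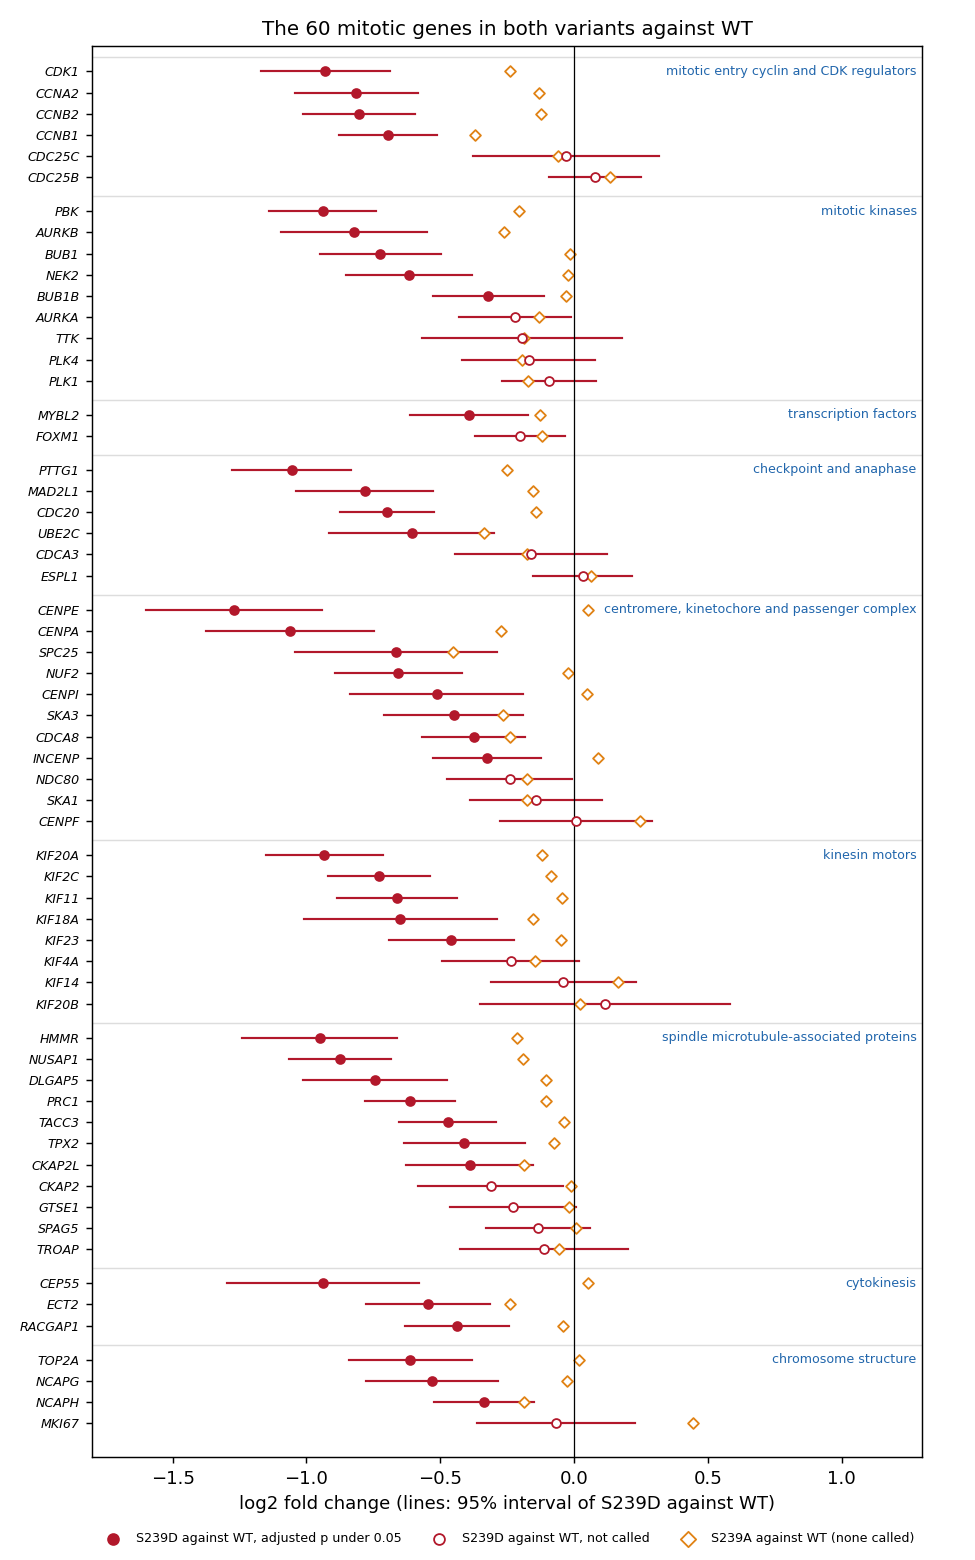
Log2 fold change against WT (x axis) of each of the 60 genes (y axis, grouped by role): S239D with its 95% interval, filled where adjusted p was under 0.05, and S239A as open diamonds. The 40 filled points all lie left of 0, and 0 of the diamonds passed the test.

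The switch that starts mitosis was lower at both cyclins B, cyclin A and their kinase. Of 6 mitotic entry genes 4 fell in S239D against WT, where 21.7% of all genes were called lower. The median log2 fold change was -0.75 over the 6. CDK1, the kinase itself (chr10:60778331-60794852 in the deposited table), had 54.4, 72.0 and 65.1 CPM in S239D, 109.1, 90.3 and 109.7 CPM in S239A and 129, 121 and 114 CPM in WT. All S239D libraries lay below all others. The log2 fold change was -0.93 ± 0.112 (SE) against WT (adjusted p = 2.13e-05) and -0.69 against S239A (adjusted p = 0.000222). CCNB1, cyclin B1, had 81.8, 94.6 and 87.4 CPM in S239D, 111, 116 and 104 CPM in S239A and 147, 142 and 139 CPM in WT, 3 levels with no overlap. It fell by 0.70 against WT (adjusted p = 2.31e-05) and by 0.33 against S239A (adjusted p = 0.00677). CCNB2, cyclin B2, had 38.1, 42.2 and 42.6 CPM in S239D, 62.1, 71.0 and 64.0 CPM in S239A and 74.9, 66.0 and 73.4 CPM in WT. S239A and WT overlapped, and S239D stood below both, by -0.80 against WT (adjusted p = 2.27e-05). CCNA2, cyclin A2, which drives S phase and entry into mitosis, averaged 58.4 ± 5.4 CPM in S239D, 93.8 ± 10 CPM in S239A and 103 ± 8.8 CPM in WT, with -0.81 against WT (adjusted p = 4.45e-05); EXOSC9, which overlaps it on the opposite strand, had 45.7% of its counts. The phosphatases that activate CDK1 were not called. CDC25B had 119, 115 and 119 CPM in S239D, 121, 132 and 116 CPM in S239A and 108, 113 and 114 CPM in WT, and a log2 fold change of 0.08 (95% interval -0.09 to 0.25) between S239D and WT. CDC25C averaged 13.1 ± 2.1 CPM in S239D, 12.8 ± 0.66 CPM in S239A and 13.4 ± 2.1 CPM in WT (SD, n = 3 each). FAM53C overlaps CDC25C on the opposite strand and had 590.8% of its counts, so these levels may hold reads of FAM53C.

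The mitotic kinases split by call. Of 9, 5 fell in S239D against WT (PBK, AURKB, BUB1, NEK2 and BUB1B), where 21.7% of all genes were called lower. PLK1, PLK4, AURKA and TTK were not called. The log2 fold change was negative in all 9, as in 49.9% of all genes. In 8 of the 9 every S239D library lay below every WT library, as in 27.4% of all genes. Differences between kinases were not tested. PLK1, the kinase that phosphorylates PDCD4 (chr16:23677656-23690367 in the deposited table), had 96.5, 93.5 and 87.9 CPM in S239D, 92.2, 83.2 and 87.6 CPM in S239A and 98.2, 99.6 and 98.8 CPM in WT. Both variants lay below WT in every library and overlapped each other. The log2 fold change was -0.09 for S239D against WT (95% interval -0.27 to 0.08, adjusted p = 0.378), 0.08 for S239D against S239A (-0.10 to 0.25, adjusted p = 0.462) and -0.17 for S239A against WT (-0.35 to 0.00, adjusted p = 0.514). AURKA, which PLK1 works with at centrosomes, had 45.6, 45.9 and 41.6 CPM in S239D, 50, 44.7 and 46.6 CPM in S239A and 52.5, 47.9 and 54.2 CPM in WT, with -0.22 between S239D and WT (95% interval -0.43 to -0.01, adjusted p = 0.0835). AURKB, its relative in the chromosomal passenger complex that corrects attachments at centromeres, had 36, 31.3 and 34.3 CPM in S239D, 60.2, 41.5 and 48.3 CPM in S239A and 63.5, 59.7 and 56.7 CPM in WT. It fell by 0.82 against WT (adjusted p = 0.000175), and all S239D libraries were below all others.

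PBK, a kinase active in mitosis, showed the lowest adjusted p of the kinases against WT (3.74e-06), with 56.8, 58.2 and 51.1 CPM in S239D, 99.4, 83.7 and 92.9 CPM in S239A and 103, 109.8 and 106 CPM in WT, a log2 fold change of -0.94; ESCO2 overlaps PBK on the opposite strand with 53.5% of its counts. BUB1, a checkpoint kinase at kinetochores, averaged 51.1 ± 2.3 CPM in S239D, 83.7 ± 12 CPM in S239A and 84.4 ± 3.6 CPM in WT (-0.72 against WT, adjusted p = 0.000104). NEK2, which helps separate centrosomes, averaged 53.0 ± 6.4 CPM in S239D, 80.1 ± 8.1 CPM in S239A and 81.4 ± 5.3 CPM in WT (-0.62, adjusted p = 0.000519). In PBK, BUB1 and NEK2 all S239D libraries were below all S239A and WT libraries. BUB1B, which encodes the checkpoint protein BUBR1, averaged 71.7 ± 4.5 CPM in S239D, 87.7 ± 9.2 CPM in S239A and 89.4 ± 4.9 CPM in WT, the smallest of the 40 log2 fold changes called (-0.32, adjusted p = 0.0168), and was not called without WT replicate 1 (adjusted p = 0.0770), WT replicate 3 (adjusted p = 0.0597) or S239D replicate 1 (adjusted p = 0.0593), nor with limma on log2(TPM + 1), where it was at -0.089 (adjusted p = 0.633). PAK6 overlaps BUB1B on the same strand with 59% of its counts. TTK, the kinase MPS1 that starts the checkpoint, ranged widely, with 23.8, 43.2 and 31.5 CPM in S239D, 31.6, 38.7 and 28.8 CPM in S239A and 38.3, 39.2 and 35.4 CPM in WT. Its S239D replicate 2 was the highest of the 9 libraries; without it the log2 fold change against WT was -0.43 (adjusted p = 0.0290), against -0.20 (adjusted p = 0.394) with it. PLK4, which starts centriole duplication, averaged 25.8 ± 3.0 CPM in S239D, 25.3 ± 1.7 CPM in S239A and 29 ± 0.95 CPM in WT.

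**Figure D3:**
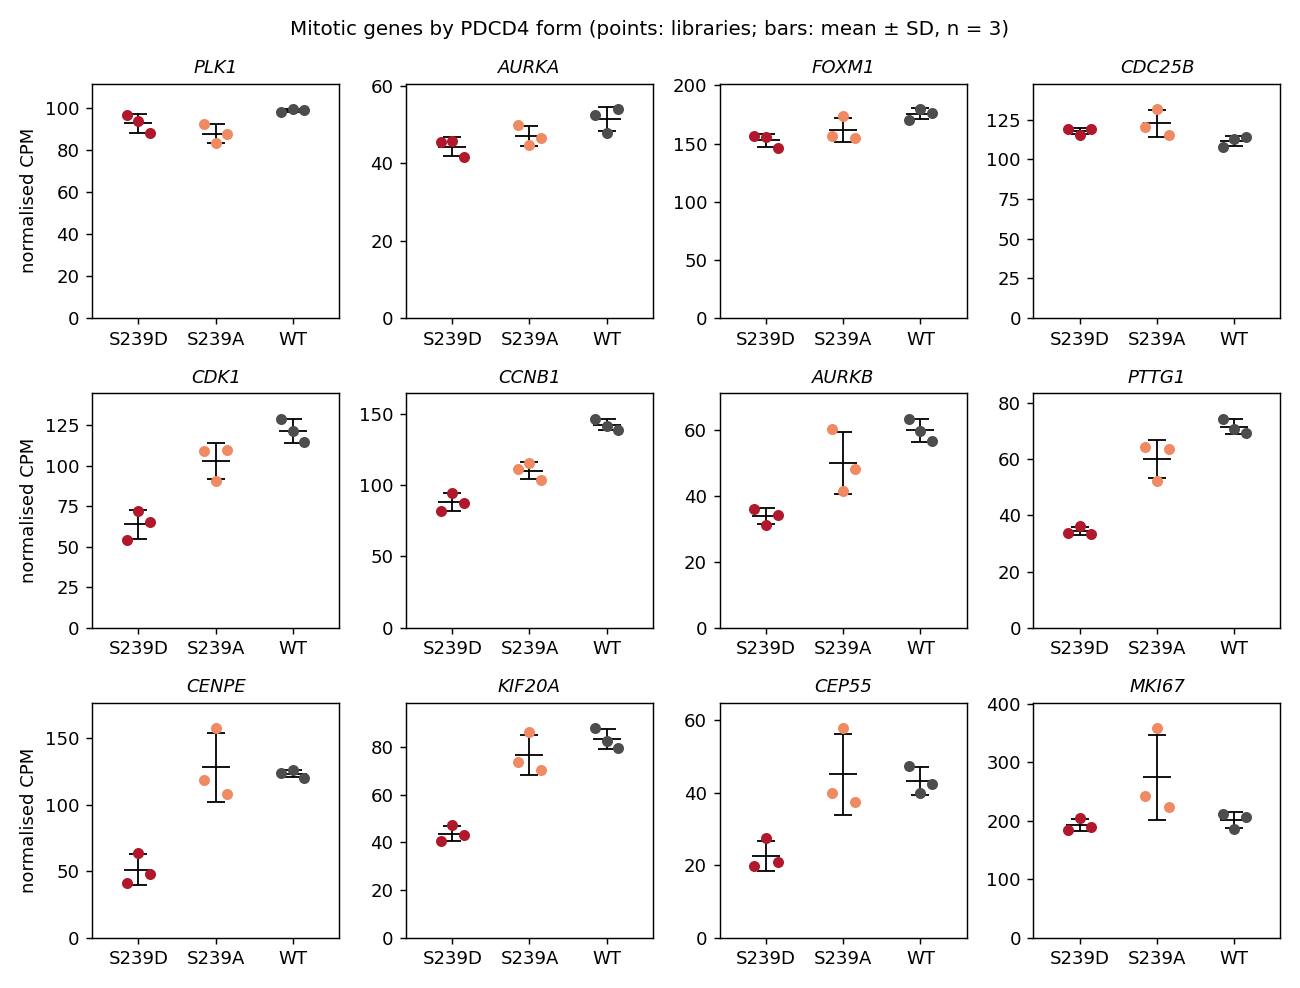
Normalised CPM (y axis, from 0) of 12 mitotic genes in S239D, S239A and WT (x axis); points are libraries and bars are the mean ± SD (n = 3). PLK1, AURKA, FOXM1 and CDC25B in the upper row stay within a narrow range, with PLK1 between 83.2 and 99.6 CPM, while the 4 genes of the middle row and CENPE, KIF20A and CEP55 are lowest in all S239D libraries.

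The transcription factors of the G2 and M program gave 1 call against WT, where 21.7% of all genes were called lower. FOXM1 had 157, 155 and 146 CPM in S239D, 157, 173 and 155 CPM in S239A and 171, 180.0 and 176 CPM in WT. All S239D libraries were below WT, and the log2 fold change of -0.20 missed the threshold (adjusted p = 0.0521). The call was gained without S239A replicate 2 (adjusted p = 0.0217) or S239D replicate 2 (adjusted p = 0.0451), at -0.20 and -0.21. MYBL2, the B-MYB factor of the MuvB complex, had 73.4, 63.4 and 72.3 CPM in S239D, 77.8, 94.9 and 78.9 CPM in S239A and 84.2, 96.0 and 94.5 CPM in WT. It fell by 0.39 against WT (adjusted p = 0.00756), and against S239A the log2 fold change was -0.27 (adjusted p = 0.0502, and 0.0432 with the replicate number as a block).

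Genes of the checkpoint and of anaphase fell in 4 of 6 cases against WT, with a median of -0.65. Over all genes 21.7% were called lower. PTTG1, securin, the inhibitor of separase (chr5:160421855-160428739 in the deposited table), had 33.6, 36.1 and 33.5 CPM in S239D, 64.3, 52.0 and 63.6 CPM in S239A and 74.3, 70.6 and 69.2 CPM in WT. The 3 groups did not overlap, and S239D was lower by -1.05 ± 0.104 (SE) against WT (adjusted p = 3.65e-06) and -0.80 against S239A (adjusted p = 3.23e-05). ESPL1, separase itself, had 88.9, 74.7 and 79.9 CPM in S239D, 84.1, 82.0 and 83 CPM in S239A and 79.0, 79.0 and 80.2 CPM in WT, with 0.03 between S239D and WT (adjusted p = 0.797). The inhibitor and the protease it holds therefore differed in call. CDC20, the activator of the anaphase-promoting complex, had 121, 102 and 108 CPM in S239D, 161, 159 and 166 CPM in S239A and 176, 176 and 185 CPM in WT, 3 separate levels (-0.70 against WT, adjusted p = 1.61e-05). MAD2L1, the checkpoint protein MAD2 that holds CDC20 inactive, had 37.8, 55.0 and 41.5 CPM in S239D, 69.0, 72.0 and 66.5 CPM in S239A and 76.9, 77.6 and 76.4 CPM in WT (-0.78, adjusted p = 0.000155). UBE2C, the ubiquitin-conjugating enzyme of the complex, had 54.1, 53.2 and 50 CPM in S239D, 71.8, 44.9 and 72.4 CPM in S239A and 78.4, 77.4 and 83.4 CPM in WT. It fell by 0.61 against WT (adjusted p = 0.00396). Against S239A it was not called (-0.27, adjusted p = 0.148), but without S239A replicate 2, the lowest of the 9 libraries, it was (-0.46, adjusted p = 0.000821). CDCA3, a trigger of mitotic entry, averaged 47.8 ± 2.2 CPM in S239D, 47.2 ± 9.7 CPM in S239A and 53.2 ± 4.4 CPM in WT and was not called.

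At the centromere and kinetochore, 8 of 11 genes fell in S239D against WT, with a median of -0.45. Over all genes 21.7% were called lower. CENPE, the kinesin that carries chromosomes to the spindle equator (chr4:103105349-103198445 in the deposited table), had the most negative log2 fold change of the 60. It had 41.3, 63.9 and 48.2 CPM in S239D, 119, 157 and 108 CPM in S239A and 124, 126 and 120.5 CPM in WT, so that every S239D library was far below every other while S239A spanned WT. The log2 fold change was -1.27 ± 0.153 (SE) against WT (adjusted p = 2.09e-05) and -1.32 against S239A (adjusted p = 1.2e-05). CENPA, the histone H3 variant that marks the centromere, had 9.19, 7.03 and 8.71 CPM in S239D, 15.3, 13.0 and 14.8 CPM in S239A and 17.0, 17.7 and 17.5 CPM in WT, with no overlap (-1.06 against WT, adjusted p = 6.56e-05). SLC35F6 overlaps CENPA on the same strand and had 450.6% of its counts, so the division of reads between them rests on the authors' estimate. CENPF, a large kinetochore and nuclear matrix protein, had 142, 184 and 170.2 CPM in S239D, 170.3, 245 and 171 CPM in S239A and 174, 161 and 159 CPM in WT, which overlapped, with 0.01 between S239D and WT (adjusted p = 0.975). CENPI, of the inner kinetochore, averaged 9.23 ± 0.96 CPM in S239D, 13.7 ± 1.0 CPM in S239A and 13.2 ± 1.3 CPM in WT (-0.51, adjusted p = 0.0140), a call lost without WT replicate 3 (adjusted p = 0.0666) or S239D replicate 1 (adjusted p = 0.0522).

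The NDC80 complex, the kinetochore's grip on microtubules, was not uniform. NUF2 had 30.3, 38.7 and 34.8 CPM in S239D, 50, 55.8 and 55.2 CPM in S239A and 59.0, 51.8 and 52.6 CPM in WT and fell by 0.66 against WT (adjusted p = 0.00034). SPC25 had 7.23, 5.67 and 7.98 CPM in S239D, 8.27, 7.5 and 8.50 CPM in S239A and 12.1, 11.4 and 9.75 CPM in WT and fell by 0.67 against WT (adjusted p = 0.00774). The S239D libraries of NUF2 were below all others, and those of SPC25 were below WT and overlapped S239A. NOSTRIN overlaps SPC25 on the opposite strand with 62.4% of its counts. NDC80 itself had 36.9, 48.7 and 43.3 CPM in S239D, 46.7, 46.0 and 42.2 CPM in S239A and 50.6, 52.0 and 49.8 CPM in WT (-0.24, adjusted p = 0.0923), and without S239D replicate 2 it was called at -0.34 (adjusted p = 0.0170). NDC80 and SKA1 lie on chromosome 18, where the median log2 fold change over 232 tested genes was 0.21 between S239D and WT. SKA3, of the complex that helps kinetochores follow shrinking microtubules, averaged 26.9 ± 3.1 CPM in S239D, 30.6 ± 3.8 CPM in S239A and 36.7 ± 1.1 CPM in WT (-0.45, adjusted p = 0.00845), and its partner SKA1 averaged 28.9 ± 0.53, 28.3 ± 3.9 and 31.8 ± 1.1 CPM in the same groups and was not called. The passenger complex scaffold INCENP had 79.1, 62.4 and 72.0 CPM in S239D, 95.7, 92.3 and 96.5 CPM in S239A and 89.1, 90.6 and 87.9 CPM in WT (-0.32 against WT, adjusted p = 0.0126). Its partner CDCA8, borealin, had 42.9, 40.1 and 40.9 CPM in S239D, 44.4, 44.4 and 47.3 CPM in S239A and 53.5, 54.1 and 53.2 CPM in WT (-0.38, adjusted p = 0.00418). In INCENP the S239A libraries lay above WT, and in CDCA8 they lay between S239D and WT.

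Of 8 kinesin motors 5 fell in S239D against WT, with a median of -0.55, where 21.7% of all genes were called lower. KIF20A, needed for cytokinesis, had 40.8, 47.1 and 43.2 CPM in S239D, 73.9, 86.3 and 70.4 CPM in S239A and 87.9, 82.5 and 79.8 CPM in WT (-0.93, adjusted p = 9.35e-06). Its S239D libraries stood apart from all others, while S239A and WT overlapped. On the opposite strand, CDC23 and BRD8 overlap KIF20A with 90.7% and 114.6% of its counts. KIF2C, a microtubule depolymerase at centromeres, averaged 48.8 ± 1.8 CPM in S239D, 76.3 ± 5.1 CPM in S239A and 80.9 ± 2.2 CPM in WT (-0.73, adjusted p = 2.24e-05). KIF11, the motor that pushes spindle poles apart, had 88.1, 101 and 93.8 CPM in S239D, 134, 171 and 128 CPM in S239A and 149, 149 and 149 CPM in WT (-0.66, adjusted p = 0.000204). In KIF2C and KIF11 the S239D libraries were again below all others, and KIF11 was nearly constant in WT. KIF18A, which limits chromosome oscillation, averaged 14.8 ± 3.9 CPM in S239D, 20.8 ± 2.1 CPM in S239A and 23.1 ± 2.4 CPM in WT (-0.65, adjusted p = 0.00666), and KIF23, of the central spindle, averaged 40.3 ± 5.0, 53.5 ± 3.3 and 55.3 ± 3.3 CPM in the same groups (-0.46, adjusted p = 0.004). KIF4A, a chromosome-bound motor, averaged 54.8 ± 6.8 CPM in S239D, 58.4 ± 9.0 CPM in S239A and 64.6 ± 1.7 CPM in WT (-0.24, adjusted p = 0.129) and was called without S239D replicate 2 (-0.32, adjusted p = 0.0451). KIF14, which acts in cytokinesis, averaged 35.5 ± 4.0 CPM in S239D, 40.9 ± 5.6 CPM in S239A and 36.6 ± 3.4 CPM in WT, and KIF20B, another cytokinesis motor, averaged 5.51 ± 0.59, 5.18 ± 0.73 and 5.03 ± 0.98 CPM; their groups overlapped.

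Spindle microtubule-associated proteins fell in 7 of 11 cases against WT, with a median of -0.41, where 21.7% of all genes were called lower. HMMR, which helps place the spindle poles, had 43.5, 61.3 and 43.6 CPM in S239D, 74.4, 96.0 and 76.9 CPM in S239A and 101, 92.4 and 92.6 CPM in WT (-0.95, adjusted p = 8.75e-05). NUSAP1, which bundles microtubules near chromatin, had 90.1, 107 and 88.7 CPM in S239D, 156, 156 and 147 CPM in S239A and 177, 166 and 181 CPM in WT (-0.87, adjusted p = 5.23e-06). In both genes S239D was below all other libraries, and in NUSAP1 the 3 groups were apart. DLGAP5, which stabilises spindle fibres at kinetochores, averaged 27.8 ± 4.5 CPM in S239D, 43.3 ± 3.4 CPM in S239A and 46.5 ± 4.2 CPM in WT (-0.74, adjusted p = 0.000356). PRC1, the crosslinker of the central spindle, averaged 116 ± 7.9 CPM in S239D, 164 ± 5.3 CPM in S239A and 177 ± 1.8 CPM in WT (-0.61, adjusted p = 3.65e-05). TACC3, a stabiliser of spindle fibres, had 131, 111 and 117 CPM in S239D, 163, 151 and 169.7 CPM in S239A and 166, 164 and 168 CPM in WT (-0.47, adjusted p = 0.000538). In DLGAP5, PRC1 and TACC3 the S239D libraries lay below all others, and the WT libraries of PRC1 and TACC3 were close together. TPX2, the activator of AURKA on the spindle, averaged 144 ± 6.5 CPM in S239D, 181 ± 31 CPM in S239A and 191 ± 6.3 CPM in WT (-0.41, adjusted p = 0.00649). The activator was called and AURKA was not, though the difference between these genes was not tested. CKAP2L, a spindle pole protein, averaged 42.8 ± 5.2 CPM in S239D, 49.2 ± 4.2 CPM in S239A and 56.0 ± 3.3 CPM in WT and was lower than in WT by -0.39 (adjusted p = 0.0114), a call lost without WT replicate 1 (adjusted p = 0.0523) or S239D replicate 3 (adjusted p = 0.0569). CKAP2, its relative, had 137, 186 and 142 CPM in S239D, 178, 227 and 165 CPM in S239A and 197, 186 and 192 CPM in WT, with -0.31 (adjusted p = 0.0629); it was called without S239D replicate 2 (-0.46, adjusted p = 0.00526), S239A replicate 2 (adjusted p = 0.0205) or S239A replicate 3 (adjusted p = 0.0494). SPAG5, a spindle and kinetochore protein, averaged 107 ± 3.6 CPM in S239D, 118 ± 12 CPM in S239A and 117 ± 6.1 CPM in WT (-0.13) and was not called. GTSE1, a microtubule-binding regulator (44.1 ± 2.2, 51 ± 4.4 and 51.4 ± 5.9 CPM in the same groups), and TROAP, a spindle assembly protein (58.2 ± 5.7, 60.3 ± 15 and 62.8 ± 1.9 CPM), overlapped between S239D and WT and were not called (-0.23 and -0.11).

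All 3 cytokinesis genes fell against WT and against S239A, where 21.7% and 22.7% of all genes were called lower. CEP55, which recruits the machinery of abscission to the midbody, had 19.7, 27.4 and 20.9 CPM in S239D, 40.0, 57.8 and 37.4 CPM in S239A and 47.4, 40.0 and 42.4 CPM in WT. S239D stood below every other library, and S239A spanned WT. The log2 fold changes were -0.94 against WT (adjusted p = 0.00054) and -0.99 against S239A (adjusted p = 0.000302). ECT2, the exchange factor that switches on RhoA at the cleavage site, had 97.4, 134 and 109 CPM in S239D, 136, 151 and 135 CPM in S239A and 165, 175 and 157 CPM in WT. It fell by 0.55 against WT (adjusted p = 0.00111), on chromosome 3, where the median over all tested genes was 0.22; against S239A it fell by 0.31 (adjusted p = 0.0312), a call lost without S239A replicate 1 (adjusted p = 0.0538), S239A replicate 2 (adjusted p = 0.0761), S239D replicate 1 (adjusted p = 0.134) or S239D replicate 3 (adjusted p = 0.106). RACGAP1, the partner of KIF23 in centralspindlin, averaged 108 ± 4.3 CPM in S239D, 142 ± 16 CPM in S239A and 146 ± 5.5 CPM in WT (-0.44 against WT, adjusted p = 0.00164). Among genes of chromosome structure, TOP2A, the topoisomerase that untangles sister chromatids, had 171, 221 and 176 CPM in S239D, 279, 332 and 269 CPM in S239A and 305, 283 and 280.4 CPM in WT (-0.61, adjusted p = 0.000459). The condensin subunits NCAPG and NCAPH averaged 64.1 ± 8.6 and 48.4 ± 1.3 CPM in S239D, 90.9 ± 12 and 53.8 ± 1.4 CPM in S239A, and 92.6 ± 1.8 and 61.2 ± 2.1 CPM in WT, and fell by 0.53 (adjusted p = 0.00216) and 0.34 (adjusted p = 0.0066) against WT. Both calls were lost with limma on log2(TPM + 1), which gave NCAPG -0.44 (adjusted p = 0.0726) and NCAPH -0.15 (adjusted p = 0.341). In TOP2A, NCAPG and NCAPH all S239D libraries were below all S239A and WT libraries.

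MKI67, which coats mitotic chromosomes and is widely used as a mark of proliferating cells (chr10:128096659-128126423 in the deposited table), was the 1 gene called against S239A and not against WT. It had 184, 205 and 189 CPM in S239D, 242, 358 and 224 CPM in S239A and 212, 186 and 207 CPM in WT. S239D overlapped WT, and all S239A libraries were above both. The log2 fold change was -0.07 between S239D and WT (95% interval -0.36 to 0.23, adjusted p = 0.727) and -0.51 between S239D and S239A (adjusted p = 0.00823). S239A replicate 2 set the size of the last difference, which was -0.27 (adjusted p = 0.0148) without it. With limma on log2(TPM + 1) it was -0.34 and not called (adjusted p = 0.153). Between S239A and WT it was 0.44 (95% interval 0.15 to 0.74, adjusted p = 0.305), and 0.21 (adjusted p = 0.397) without that library.

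Set directly against S239A, S239D was lower in 34 of the 60 genes and higher in 0, where 22.7% of all genes were called lower, 20.9% higher and 43.6% in either direction. At an unadjusted p under 0.05 edgeR gave 36 lower, against 26.2% of all genes, and 0 higher, and DESeq2 and limma called 0 higher. The median log2 fold change was -0.37, against 0.0099 over all genes, and in 38 genes every S239D library was below every S239A library, as in 25.6% of all genes. This comparison shares its S239D libraries with the one against WT. In the same 2 comparisons 33 genes were called lower in both, 7 against WT alone (MYBL2, UBE2C, SPC25, SKA3, CDCA8, CKAP2L and NCAPH) and 19 in neither. By role, the calls against S239A were 4 of 6 entry genes, 5 of 9 kinases, 0 of 2 transcription factors, 3 of 6 checkpoint and anaphase genes, 5 of 11 kinetochore genes, 5 of 8 kinesins, 6 of 11 spindle proteins, 3 of 3 cytokinesis genes and 3 of 4 chromosome genes. For the 2 transcription factors edgeR gave 1 at an unadjusted p under 0.05, MYBL2, and DESeq2 and limma called 0. Some of these calls were lost when 1 library was left out. BUB1B (adjusted p = 0.0263) was lost without S239A replicate 2 (adjusted p = 0.0853) or S239D replicate 1 (adjusted p = 0.0872), and KIF18A (adjusted p = 0.0276) without S239A replicate 2 (adjusted p = 0.0792), S239D replicate 1 (adjusted p = 0.104) or S239D replicate 3 (adjusted p = 0.124). TPX2 (-0.34, adjusted p = 0.0188) was lost without S239A replicate 2 (-0.18, adjusted p = 0.0605), S239D replicate 1 (adjusted p = 0.0592) or S239D replicate 3 (adjusted p = 0.0582). With limma on log2(TPM + 1) 20 of the 60 were called lower, as were 11% of all genes in that fit. The 14 calls lost, at adjusted p of 0.0506 to 0.200, were those of CCNB1, AURKB, BUB1B, INCENP, KIF18A, KIF23, TPX2, PRC1, HMMR, ECT2, RACGAP1, TOP2A, NCAPG and MKI67. Of these, CCNB1 (-0.20), AURKB (-0.30), PRC1 (-0.30), RACGAP1 (-0.24) and MKI67 (-0.34) had log2 fold changes smaller by over 1.5 times. CKAP2L was gained without S239D replicate 2 (-0.31, adjusted p = 0.0281). CKAP2 (-0.30, adjusted p = 0.0703) was gained without S239D replicate 2 (adjusted p = 0.00596) or S239A replicate 3 (adjusted p = 0.0304) and, with the replicate number as a block, at adjusted p = 0.0201.

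S239A and WT gave no called mitotic gene. At an adjusted p under 0.05 edgeR called 0 of the 60, where 0.00617% of all genes, 1 gene, was called; at an unadjusted p under 0.05 it gave 11 lower and 1 higher, against 4.29% and 5.47% of all genes, 9.76% together. DESeq2 called 1 of the 60 lower, CCNB1, and limma 0. The log2 fold change was negative in 48 of the 60, as in 49.7% of all genes, with a median of -0.12 against 0.0017 over all genes, and every S239A library lay below every WT library in 18 genes, as in 9.55% of all genes, and above in 4, as in 9.94%. CCNB1 had the smallest p of the 60, with -0.37 (adjusted p = 0.201 in edgeR and 0.0253 in DESeq2). SPC25 (-0.45, adjusted p = 0.419), CDCA8 (-0.24, adjusted p = 0.400), PTTG1 (-0.25, adjusted p = 0.447), UBE2C (-0.34, adjusted p = 0.471) and MKI67, higher at 0.44, were the other genes of smallest p. CDK1 was at -0.24, AURKB at -0.26, AURKA at -0.13, FOXM1 at -0.12 and MYBL2 at -0.13, none of them called. The group means ran S239D below S239A below WT in 43 of the 60 genes and S239D below WT below S239A in 8. S239A was lowest in 5 genes and WT lowest in 4, of which KIF20B alone had S239D highest. These orders rest on means and are no test, since S239A and WT overlapped in 38 genes. The share of all genes in each order was not counted.

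Over the 60 genes, levels varied more among the libraries of each variant than among those of WT. The median coefficient of variation over the 60 genes was 9.46% in S239D, 10.2% in S239A and 4.49% in WT. S239D replicate 2 was the highest of its group in 38 of the 60 genes, and S239A replicate 2 in 40. The median log2 deviation from the WT mean was -0.57, -0.37 and -0.48 in the S239D libraries, -0.13, 0.01 and -0.17 in the S239A libraries and 0.02, -0.0034 and -0.02 in the WT libraries. Within S239A replicate 2 the genes diverged: MKI67, CENPF, CENPE and CEP55 were at their highest of the 9 libraries there, and UBE2C, CDCA3 and TROAP at their lowest. Those 7 genes were picked out after their values were seen. Mitochondrially encoded transcripts took 4.72%, 6.01% and 4.90% of counts in the S239D libraries, 3.33%, 5.38% and 2.99% in the S239A libraries and 2.99%, 2.83% and 3.04% in the WT libraries, and their part in the results was not tested. Without both second libraries of the variants, 47 of the 60 genes were called lower in S239D than in WT, as were 26.3% of all genes. Against S239A 37 were called lower, as were 25.2% of all genes. In S239A against WT that fit called 7 lower (CCNB1, SKA3, KIF4A, TPX2, NUSAP1, HMMR and ECT2) and MKI67 higher, where 5.29% of all genes were called.

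**Figure D4:**
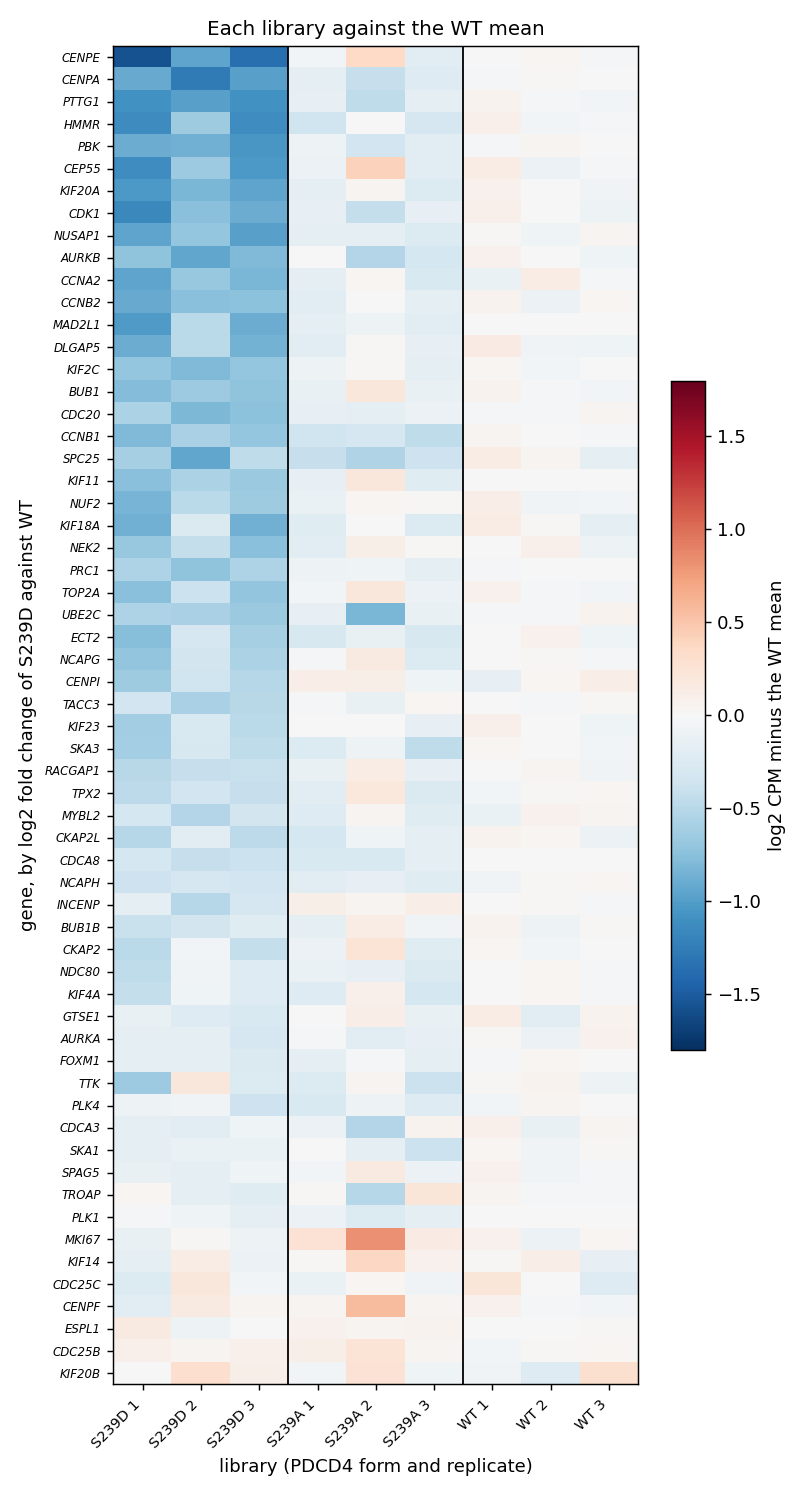
Log2 CPM minus the WT mean (colour) for each of the 60 genes (y axis, ordered by the log2 fold change of S239D against WT) in each library (x axis). The upper rows are blue in all 3 S239D columns, S239A replicate 2 is the column with the most mixed colours among S239A, and the lowest rows, from PLK1 down, stay pale in the S239D columns.

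On the per-length scale, UBE2C and PTTG1 were the most abundant of the 60 in WT, at 152 ± 8.4 and 109.97 ± 6.9 TPM in S239D, 172 ± 42 and 181 ± 19 TPM in S239A and 219.96 ± 5.6 and 219 ± 8.0 TPM in WT (SD, n = 3 each). CDC20 followed, with 112 ± 7.1 TPM in S239D, 154 ± 1.7 TPM in S239A and 172 ± 3.3 TPM in WT. PLK1 stood at rank 18 in WT, with 70.9 ± 4.2 TPM in S239D, 63.4 ± 3.1 TPM in S239A and 73.8 ± 1.7 TPM in WT, and CENPE at rank 51, with 8.48 ± 2.2 TPM in S239D, 20.4 ± 3.5 TPM in S239A and 19.9 ± 1.3 TPM in WT. KIF20B was lowest, at 1.39 ± 0.32, 1.32 ± 0.22 and 1.19 ± 0.26 TPM in the same groups. Neighbours in this order, such as UBE2C and PTTG1 in WT, did not differ beyond their spread.

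Other genes of the same machinery gave a mixed picture, beside 21.7% of all genes called lower in S239D than in WT and 19.7% called higher. Of 32 further kinetochore and centromere genes, S239D had 14 lower and 4 higher against WT (median log2 fold change -0.26). SPC24, the partner of SPC25 (25.5 ± 3.2 CPM in S239D, 48.5 ± 4.0 CPM in WT, -0.93), CENPU (-0.89) and BIRC5, survivin of the passenger complex (-0.81), fell, while PMF1, a MIS12 complex subunit, was higher (70.5 ± 7.8 CPM in S239D, 37.2 ± 1.8 CPM in WT, 0.92, adjusted p = 1.78e-05). CENPT (0.44), CENPL (0.37) and CENPN (0.26) were called higher as well. Each of the 3 lost its call without some single libraries; without WT replicate 1 the adjusted p was 0.102 for CENPT and 0.130 for CENPL, and without WT replicate 3 it was 0.118 for CENPN. Limma called none of the 3 (adjusted p of 0.0819 to 0.221). Of 32 other spindle, centrosome and cytokinesis genes 14 were lower and 3 higher (median -0.23). The tubulin genes TUBB4B (-0.62) and TUBA1B (-0.54) and the motor KIFC1 (-0.76) fell, and the centrosome genes PCNT (0.69) and CEP152 (0.85) and the pole protein NUMA1 (0.31) rose. With limma on log2(TPM + 1) CEP152 was at 0.55 and not called (adjusted p = 0.424). Among 18 regulators and relatives of PLK1 and of mitotic entry 8 were lower and 1 higher (median -0.24). CKS2, a CDK1-binding subunit, had 21.2 ± 1.3 CPM in S239D and 44.5 ± 2.7 CPM in WT (-1.07, adjusted p = 1.43e-05). WEE1, the kinase that inhibits CDK1 (-0.70), MASTL, which restrains the opposing phosphatase (-0.59), and cyclin F, CCNF (-0.58), fell too, WEE1 not with limma (-0.39, adjusted p = 0.0869). BTRC, which marks mitotic regulators for destruction, was higher (0.40, adjusted p = 0.0207), a call lost without WT replicate 2 (adjusted p = 0.0917) or S239D replicate 2 (adjusted p = 0.0569) and with limma (0.25, adjusted p = 0.428).

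In the anaphase-promoting complex and its regulators, S239D had 3 of 17 genes lower and 4 higher against WT (median -0.10), and in cohesin and condensin 4 of 16 lower and 4 higher (median -0.01). Both counts were near the shares over all genes, 21.7% lower and 19.7% higher. UBE2S, the chain-elongating enzyme of the anaphase-promoting complex, had 209 ± 30 CPM in S239D and 395 ± 10 CPM in WT (-0.92, adjusted p = 5.31e-06), and the subunits ANAPC13 (0.60), ANAPC1 (0.51), ANAPC2 (0.48) and ANAPC7 (0.43) rose. The condensin subunits NCAPD2 (-0.64), NCAPG2 (-0.52) and NCAPD3 (-0.39) fell, as NCAPG and NCAPH did, whereas the cohesin genes PDS5B (0.69) and STAG1 (0.64) rose. With limma neither NCAPD3 (-0.14, adjusted p = 0.332) nor PDS5B (0.51, adjusted p = 0.131) was called. NIPBL, the cohesin loader (0.42), and WAPL, its releaser (0.30), were called higher too, but not without WT replicate 1 (adjusted p = 0.103 for NIPBL and 0.111 for WAPL), and NIPBL was at 0.23 (adjusted p = 0.224) without S239D replicate 2; limma called neither NIPBL nor WAPL. Of 17 MuvB, DREAM and E2F regulators 6 were lower and 2 higher (median -0.0033). E2F2 (-0.84), E2F8 (-0.75), RBBP4 (-0.43) and TFDP1 (-0.41) fell, and E2F5 (0.79) and TFDP2 (0.37) were higher, TFDP2 not without WT replicate 2 (adjusted p = 0.0518), while limma put it at -0.11 (adjusted p = 0.765).

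DNA replication genes, which act in the preceding S phase, were close to the mitotic genes in these measures. Of 59, S239D had 45 lower (76.3%) and 2 higher against WT (median -0.47), where 21.7% of all genes were lower and 19.7% higher. GMNN, geminin, which blocks re-replication (-1.02), GINS2 of the replicative helicase (-0.96), ASF1B, a histone chaperone (-0.84), and RRM2, of ribonucleotide reductase (-0.70), fell, while TYMS (0.46) and POLE (0.39) rose. The summed level of the 59 averaged 3421 ± 216 TPM in S239D, 3723 ± 65.4 TPM in S239A and 4192 ± 60.4 TPM in WT, 18.39% below WT in S239D and 11.18% in S239A. For S239D against S239A, 22.7% of all genes were called lower and 20.9% higher. The counts lower and higher were 11 (34.4% of the list) and 4 for the kinetochore list, 10 (31.2%) and 2 for the spindle list and 7 (38.9%) and 3 for the PLK1 list. They were 2 (11.8%) and 5 for the anaphase-promoting complex, 3 (18.8%) and 2 for cohesin and condensin, 6 (35.3%) and 1 for the MuvB list, and 34 (57.6%) and 2 for replication. For S239A against WT edgeR called 0 in every one of these lists, with 5, 2, 0, 1, 1, 1 and 19 lower and 0, 1, 0, 0, 0, 1 and 0 higher at an unadjusted p under 0.05, in the same order of lists. At that threshold 4.29% of all genes were lower and 5.47% higher.

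**Figure D5:**
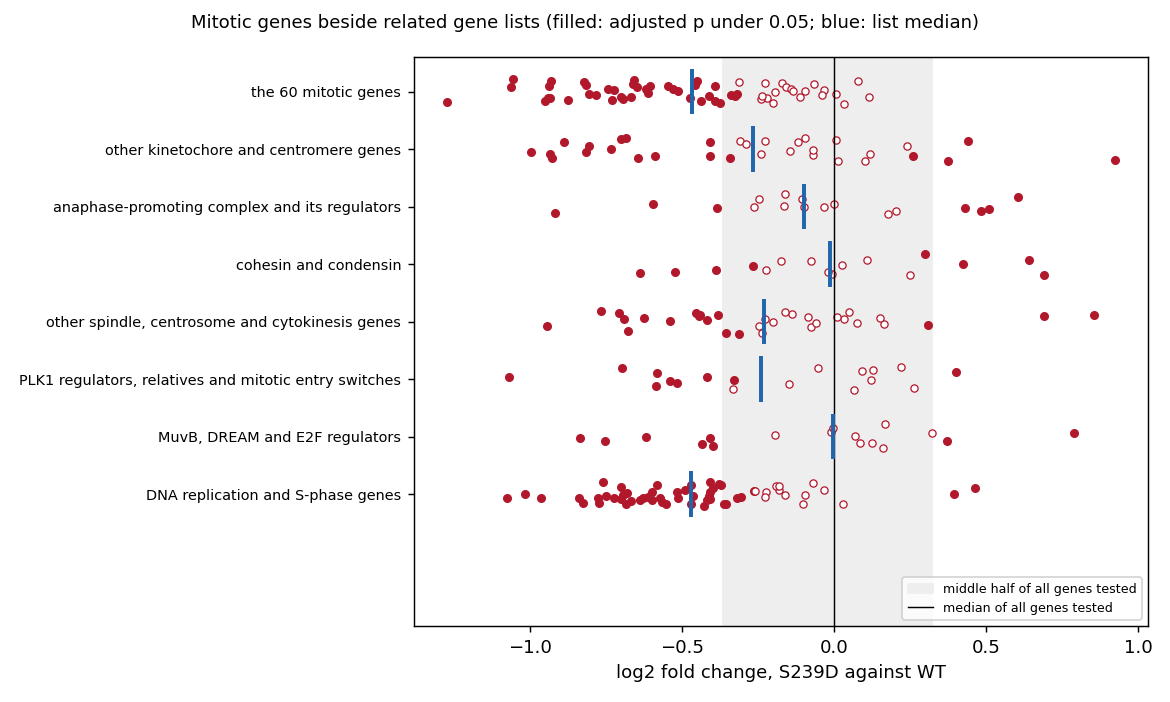
Log2 fold change of S239D against WT (x axis) for each gene of the 60 and of 7 related lists (y axis); filled points had adjusted p under 0.05, blue lines are list medians and the grey band holds the middle of all genes tested. The medians of the 60 mitotic genes and of the replication genes are both -0.47, and those of the cohesin and condensin and MuvB lists are near 0.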

How the data were processed

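RNA was measured in 9 libraries of 22Rv1 cells, 3 per PDCD4 form, after selection of messenger RNA on poly-T beads and random priming, per the labels' protocols. The authors deposited expected counts per gene from RSEM, not normalized between libraries, and TPM scaled within each library. Per the submitters' processing notes the tools included Trimmomatic 0.39. Not given in the sources used here were the aligner, genome build, annotation and strandedness. Where genes overlap on opposite strands, their reads may therefore not have been separated: 14 of the 60 genes overlap a gene with at least 10% of their counts, 11 of them on the opposite strand. Besides those given with their genes above, the opposite-strand overlaps were CDCA3 (GNB3, 58.4%), KIF4A (PDZD11, 45.6%) and NCAPG (LCORL, 38.6%). TACC3 (TMEM129, 37.6%), FOXM1 (RHNO1, 34.7%, and ITFG2, 28.1%) and NUSAP1 (OIP5, 11.1%) had them too. PRC1 overlaps a gene without symbol on the same strand (11.6%). Coordinates are those of the deposited table, in which all 60 overlap the GENCODE 29 gene of the same ID on GRCh38 and 46 share an end with it. Of the deposited count values 3.81% were not whole. Of 60623 genes, 31823 had no count, and 22747 had no symbol and held 1.33% of counts.

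Expected counts were rounded, scaled by TMM and filtered with filterByExpr. They were tested with edgeR 4.0.16 (R 4.3.3) by two-sided quasi-likelihood tests in 1 fit of all 9 libraries, with Benjamini-Hochberg adjustment over 16213 genes and calls at 0.05. Normalised CPM are TMM-scaled; TPM are the authors' values. Pairs of libraries correlated at 0.976 to 0.987 within groups and 0.937 to 0.985 between groups (log2 CPM over genes; genes are not replicates). The common biological coefficient of variation was 0.106. Scripts were tested on simulated data. Alternatives were RLE scaling, DESeq2 1.42.0, limma 3.58.1 on log2(TPM + 1), keeping genes that reached 1 TPM in 3 libraries (this scale understates changes of low genes), no filter, 1 CPM in 6 libraries, the 2 groups compared fitted alone, a block for replicate number, each library left out, both second libraries of the variants left out, and scaling without mitochondrial and ribosomal protein genes. Libraries of the same number in S239D and S239A deviated together, with correlations of deviations from the group means of 0.1003, 0.251 and 0.103, each over 0.1, so the block is given beside that comparison; the labels give no reason for the pairing, and S239D replicate 1 correlated more with S239A replicate 3 (0.15) than with its own number.

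The members, the role groups, the related lists and the tests were chosen with earlier results of these data known, so lists are described by counts and medians with no test of the list. Any of the 60 genes could be named with its values. For S239A against WT, PLK1, AURKA, AURKB, CDK1, FOXM1, MYBL2 and the 6 genes of smallest p were named, and genes called under another setting were named after their values were seen. From each related list the 4 called genes of smallest adjusted p and any called higher were named.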

Additional observations from a re-analysis of the deposited data

How the results depend on the processing

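Across 18 alternative settings the count of the 60 genes lower in S239D ran from 27 to 47 against WT (medians -0.54 to -0.36) and from 20 to 37 against S239A (-0.40 to -0.25), with 0 higher in each. The share of all genes called lower also moved, from 10.5% to 26.3% against WT and from 11% to 25.2% against S239A. In every setting 27 of the 40 calls against WT and 20 of the 34 against S239A held. The lowest counts came from limma on log2(TPM + 1), which called 4351 genes against WT (27 of the 60 lower, median -0.36) and 4697 against S239A (20 of the 60 lower, median -0.25). TPM were not scaled between libraries in that fit. Its median log2 fold change over all genes was 0.082 against WT and 0.092 against S239A, where the main fit had 0.00075 and 0.0099. The part of this shift in the limma values of the 60 genes was not tested. Where S239A was set against WT, DESeq2 called 65 genes (1 of the 60 lower), limma 2, the fit with no filter 142 (1 of the 60 higher, MKI67) and the fit without both second libraries of the variants 874 (7 of the 60 lower, 1 higher). Leaving out 1 library gave 5322 to 7533 genes for S239D against WT, with 38 to 45 of the 60 lower, 5853 to 7182 against S239A, with 30 to 36 lower, and 1 to 8 for S239A against WT. With the replicate number as a block 7275 genes were called for S239D against WT (42 of the 60 lower, FOXM1 and CKAP2 added), 7610 against S239A (36 lower, with no call changed but those of MYBL2 and CKAP2) and 6 for S239A against WT (0 of the 60). Same-numbered libraries had correlations of deviations of -0.0087 to 0.010 for S239D against WT and 0.015 to 0.0914 for S239A against WT. The value of 0.0914 was close to the 0.1003 of replicate 1 in S239D and S239A, and the labels state no pairing. Among the named genes, signs turned only in genes not called, besides TFDP2. With limma these were, against WT, CDC25C 0.19, CENPF -0.27, SKA1 0.067, KIF14 0.021, SPAG5 0.11, MKI67 0.052 and TFDP2 -0.11, and, against S239A, CDC25B 0.097, AURKA 0.0036, FOXM1 0.014, ESPL1 0.049, CDCA3 -0.12, NDC80 0.046, KIF4A 0.041, SPAG5 0.064 and NCAPH 0.011. Without both second libraries they were CENPF -0.071 against WT and CDC25B 0.019, CDC25C -0.051, ESPL1 0.017 and CDCA3 -0.11 against S239A, and with the block CENPF -0.0073 against WT. Leaving out 1 library gave ranges across 0 for S239D against WT in CDC25C -0.15 to 0.10, CENPF -0.073 to 0.10, KIF14 -0.13 to 0.017 and ESPL1 -0.039 to 0.088. For S239D against S239A it did so in CDC25C -0.092 to 0.13, PLK4 -0.029 to 0.12, CDC25B -0.099 to 0.00049, TTK -0.25 to 0.18, CDCA3 -0.14 to 0.15, KIF4A -0.17 to 0.043, SKA1 -0.069 to 0.13, TROAP -0.24 to 0.11, NDC80 -0.16 to 0.033 and ESPL1 -0.10 to 0.026. For S239A against WT, signs were followed only in PDCD4 and the mitotic genes named by rule for that comparison. Of these, PDCD4 ranged across 0, from -0.13 to 0.063, and signs of the other mitotic genes were not followed. The cause of these changes was not tested. Genes of low level are limited by depth: SPC25 and CENPA had 5.67 to 17.7 CPM, and KIF20B 4.21 to 6.17.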
